A study of Mus musculus with 2 samples.

Results

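The 9 genes described here encode the core of Polycomb repressive complex 2 (Ezh1, Ezh2, Eed and Suz12), the de novo DNA methyltransferases (Dnmt3a and Dnmt3b) and the TET dioxygenases (Tet1, Tet2 and Tet3). They were taken by symbol and are 9 of the 55536 annotated genes in the deposited tables. Total RNA was sequenced from heart tissue of female mice of the F1 strain B6CASTF1/J at 4 days of age, in 2 libraries made from 300 ng of RNA each with ERCC spike-ins. The labels number these libraries as biological replicates 1 and 2 but give them the same donor, so the spread between them may be partly technical. They form 1 group with no treated or mutant counterpart, and every value below describes whole heart, in which fewer cells of a type and less RNA per cell cannot be told apart.

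Polycomb repressive complex 2 (PRC2) places methyl groups on lysine 27 of histone H3, a mark of silenced genes. EZH1 or EZH2 is its catalytic subunit, EED binds the finished mark and stimulates the enzyme, and SUZ12 holds the complex together. DNMT3A and DNMT3B add methyl groups to unmethylated cytosines of DNA, and the TET enzymes oxidise methylcytosine as a step towards its removal. In the heart after birth, cardiomyocytes leave the cell cycle while their DNA methylation is rewritten, and both EZH2 and DNMT3A are known from mouse knockouts to act on cardiomyocyte genes.

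The libraries held 36175363 expected counts (replicate 1) and 32509660 (replicate 2). The labelled tissue was checked against 6 cardiomyocyte markers, all of which were expressed, with summed levels of 28371 and 28350 TPM. The libraries stood apart in blood and skeletal muscle RNA: 7 erythroid markers summed to 17279 TPM in replicate 1 and 221 TPM in replicate 2, and 6 skeletal muscle markers to 31.7 and 3.05 TPM. The part of this difference in the levels of the 9 genes was not tested.

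Promoter sequences from RefSeq (build GRCm38.p6, 250 bases before to 50 after each start) were found for all 9 genes, as 11 windows because Dnmt3a has 3 starts. The windows of Ezh2 and Suz12 are printed first because they alone among the members held a match to the E2F motifs searched, TTTGGCGC, TTTCCCGC and TTTCGCGC on either strand; E2F factors drive cell cycle genes, and Ezh2 is a known E2F target in cultured fibroblasts. Capitals mark the match, and both windows read 5′ to 3′ on the strand of the gene, chr6:47594981-47595280 on the minus strand and chr11:79992856-79993155 on the plus strand.
Ezh2 promoter: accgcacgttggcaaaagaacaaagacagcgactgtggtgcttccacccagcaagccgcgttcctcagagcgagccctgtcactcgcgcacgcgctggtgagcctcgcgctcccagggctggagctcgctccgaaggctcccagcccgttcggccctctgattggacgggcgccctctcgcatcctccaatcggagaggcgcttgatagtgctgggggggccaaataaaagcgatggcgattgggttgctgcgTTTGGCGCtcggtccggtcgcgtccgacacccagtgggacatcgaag
Suz12 promoter: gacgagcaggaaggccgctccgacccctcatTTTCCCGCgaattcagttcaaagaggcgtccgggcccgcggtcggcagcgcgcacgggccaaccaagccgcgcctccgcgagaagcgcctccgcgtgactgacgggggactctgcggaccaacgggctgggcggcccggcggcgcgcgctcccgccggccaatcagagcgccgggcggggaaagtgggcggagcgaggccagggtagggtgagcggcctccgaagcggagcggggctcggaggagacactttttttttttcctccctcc

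In Ezh2 the match TTTGGCGC began 3 bases after the start base, and in Suz12 TTTCCCGC began at position -219, where negative positions lie before it. At least 1 of the 3 motifs was present in 1.84% of 32851 RefSeq promoter windows and in 3.50% of the 12036 windows of expressed protein-coding genes. The match is a description of these letters and not evidence of a bound site.

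The next windows show the upstream and internal Dnmt3a starts, on which its transcript results turn, and the Tet2 start, printed for its CpG content. CpG dinucleotides are in capitals, since CpG is the substrate of the enzymes that 5 of these genes encode. Dnmt3a has an upstream start for its long protein (chr12:3806910-3807209, plus strand) and an internal start for its short protein (chr12:3891494-3891793, plus strand). The Tet2 window (chr3:133544341-133544640, minus strand) was the member window with the most CpG.
Dnmt3a upstream start: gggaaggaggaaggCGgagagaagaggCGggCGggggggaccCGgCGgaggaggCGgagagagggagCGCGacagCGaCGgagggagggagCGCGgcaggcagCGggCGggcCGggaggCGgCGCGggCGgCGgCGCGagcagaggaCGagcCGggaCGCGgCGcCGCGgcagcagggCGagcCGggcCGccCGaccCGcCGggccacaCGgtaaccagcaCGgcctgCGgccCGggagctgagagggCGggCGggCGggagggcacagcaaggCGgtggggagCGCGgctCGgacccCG
Dnmt3a internal start: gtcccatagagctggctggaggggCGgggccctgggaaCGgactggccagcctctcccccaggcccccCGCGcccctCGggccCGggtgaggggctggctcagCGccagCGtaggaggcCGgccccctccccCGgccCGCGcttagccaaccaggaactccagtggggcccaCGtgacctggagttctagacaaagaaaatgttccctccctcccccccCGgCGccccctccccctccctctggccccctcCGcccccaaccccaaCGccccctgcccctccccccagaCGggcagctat
Tet2 start: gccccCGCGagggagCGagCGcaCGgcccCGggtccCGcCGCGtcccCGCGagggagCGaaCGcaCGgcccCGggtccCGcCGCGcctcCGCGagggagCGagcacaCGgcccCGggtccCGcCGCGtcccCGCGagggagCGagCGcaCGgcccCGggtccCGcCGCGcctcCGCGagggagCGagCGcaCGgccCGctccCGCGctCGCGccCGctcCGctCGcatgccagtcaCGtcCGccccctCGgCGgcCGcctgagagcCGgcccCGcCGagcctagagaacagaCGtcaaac

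The upstream Dnmt3a window held 47 CpG and the internal window 18, in the same length of 300 bases. Tet2 held 57 CpG, more than 99.8% of all windows. Suz12 held 41, Ezh2 31, Dnmt3b 30, Ezh1 23, Tet3 22, and Eed and Tet1 17 each. The median was 30 over the 11 member windows, against 21 over windows of expressed protein-coding genes and 7 over all windows. A remaining Dnmt3a window with 46 CpG overlapped the upstream window printed above, so the windows are not independent.

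**Figure D1:**
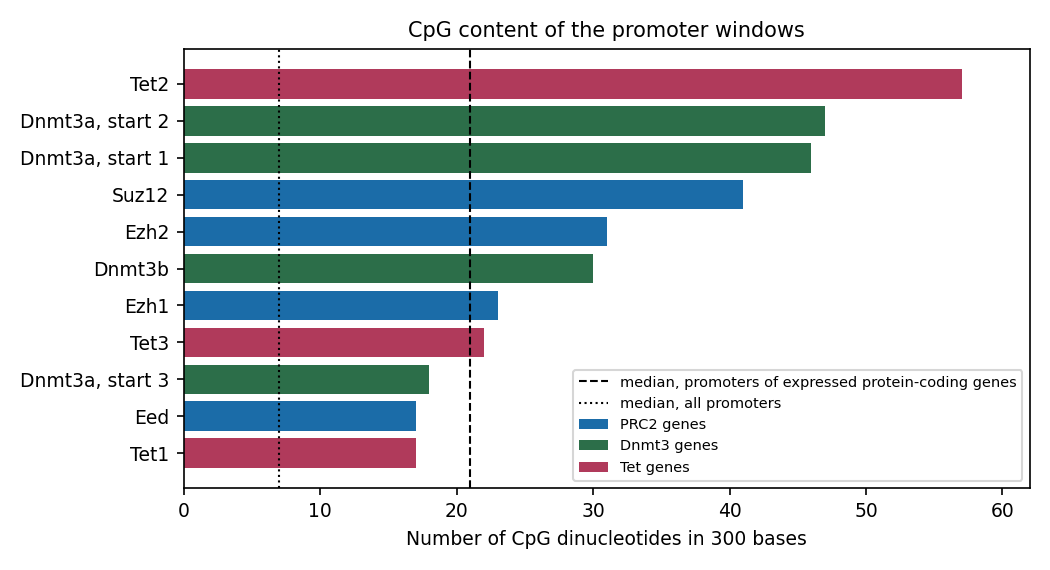
CpG dinucleotides (horizontal axis, number per 300-base promoter window) for the 11 windows of the 9 genes, coloured by family, with the medians of expressed protein-coding genes (21, dashed) and of all windows (7, dotted). Of the windows, 8 lie above the dashed line and the internal Dnmt3a start (18), Eed and Tet1 (17 each) lie below it.

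All 9 genes reached 1 TPM in both libraries. TPM, the transcript abundance scaled to a fixed total, corrects a count for transcript length and depth, so levels of different genes can be compared on it. The same threshold was reached by 24.1% of all annotated genes and by 54.2% of the 22028 protein-coding genes. The levels spanned a wide range, from Dnmt3a, above 88.2% of expressed protein-coding genes, to Dnmt3b, above only 2.42% of them.

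Neighbours in the order of mean TPM were taken to differ when mean ± SD did not overlap and both libraries gave the same order. The order by TPM was Dnmt3a, Ezh2, Suz12, Tet3, Tet2, Eed, Tet1, Ezh1 and Dnmt3b, and 7 of its 8 neighbouring pairs differed. Tet2 and Eed did not differ beyond their spread. Dnmt3a had the highest mean and Dnmt3b the lowest on TPM, in the second quantification, over complete coding transcripts alone and on CPM, which scales counts for depth alone. In the second quantification Dnmt3a (68.6 ± 6.45 TPM) and Ezh2 (66.7 ± 8.20 TPM) did not differ beyond their spread, and the order of means was that of TPM. On CPM, which drops the correction for length, the order was Dnmt3a, Tet3, Tet2, Suz12, Tet1, Ezh2, Ezh1, Eed and Dnmt3b.

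The order also depended on which transcripts were counted. The annotation lists for these genes many short transcripts that code for no complete protein, and a few reads on a short transcript give a high TPM. A stricter level was therefore also taken over transcripts with a complete coding sequence, a choice made after the data had been seen. On that scale the order was Dnmt3a, Suz12, Ezh2, Tet3, Tet2, Ezh1, Tet1, Eed and Dnmt3b, and 5 of 8 neighbouring pairs differed. Ezh2 and Tet3, Ezh1 and Tet1, and Tet1 and Eed did not differ on it.

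**Figure D2:**
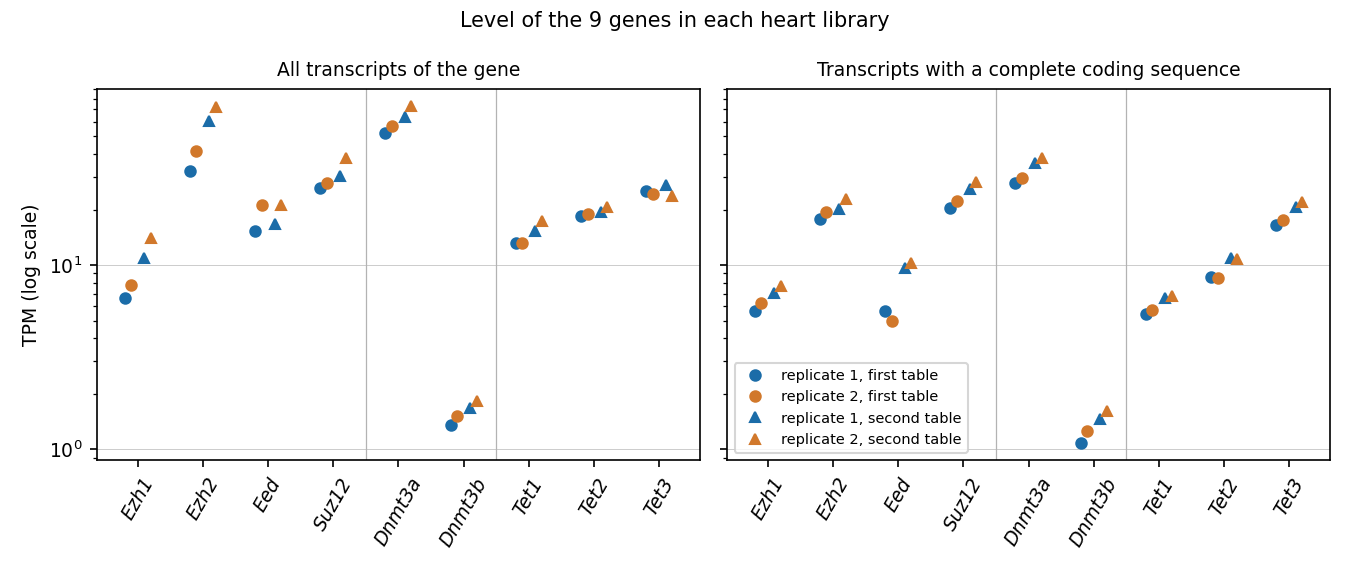
TPM on a log scale of the 9 genes in replicate 1 (blue) and replicate 2 (orange), from the first table (circles) and the second quantification (triangles), for all transcripts (left) and for transcripts with a complete coding sequence (right). Dnmt3a is highest and Dnmt3b lowest among the first-table circles of both panels, while Eed drops from a mean of 18.3 TPM on the left to 5.29 TPM on the right.

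Of the PRC2 catalytic subunits, Ezh2 was the more abundant RNA. Ezh1 (ENSMUSG00000006920.14, mm10 chromosome 11, 101191115 to 101226463, minus strand) stood at 6.66 TPM in replicate 1 and 7.81 in replicate 2. Ezh2 (ENSMUSG00000029687.16, chromosome 6, 47530139 to 47595341, minus strand), the form known for dividing cells, stood at 32.6 TPM in replicate 1 and 41.8 in replicate 2. The ranges of the pair did not overlap.

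The log2 ratio of Ezh1 over Ezh2 was -2.36 ± 0.09 (SD, n = 2), so that Ezh2 was 5.12-fold higher. Over complete coding transcripts Ezh1 averaged 5.95 ± 0.417 TPM and Ezh2 18.7 ± 1.17 TPM, and the log2 ratio was -1.65 ± 0.01. The difference in size between those ratios exceeded the spread between the libraries, and the direction was the same in each. Ezh2 RNA made up 83.6% ± 0.876 of the summed TPM of the pair and 75.8% ± 0.134 of the complete coding sum.

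Eed (ENSMUSG00000030619.9, chromosome 7, 89954654 to 89980983, minus strand) stood at 15.4 and 21.2 TPM in replicates 1 and 2, and Suz12 (ENSMUSG00000017548.15, chromosome 11, 79993106 to 80034123, plus strand) at 26.1 and 27.9 TPM. The log2 ratio of Eed over Suz12 was -0.58 ± 0.26 on TPM. Over complete coding transcripts it was -2.01 ± 0.23, with Eed at 5.63 and 4.95 TPM and Suz12 at 20.4 and 22.3 TPM. Eed was thus the lower of the pair in each library on each of these scales, but by how much depended on the transcripts counted.

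The TPM spread of Eed and Ezh2 between the libraries was wider than that of the other PRC2 genes. For Eed, CPM was 13.0 in replicate 1 and 14.4 in replicate 2, and the effective length, the abundance-weighted length that TPM divides by, was 1088 and 898 bases. For Ezh2, CPM was 41.3 and 47.6 and the effective length 1632 and 1506 bases. Both the reads scaled for depth and the effective length thus differed between the libraries for each of these genes.

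The PRC2 genes lay among a largely expressed Polycomb set. Of 9 accessory subunits found in the annotation, 8 reached 1 TPM in both libraries, from the histone chaperone Rbbp7 at 113 ± 5.70 TPM to Epop, an elongin-binding subunit, at 0.72 ± 0.156 TPM, which missed the threshold. Of 19 subunits of PRC1, the complex that ubiquitinates histone H2A, 18 were expressed, with Phc2 highest at 31.6 ± 1.46 TPM and Cbx7, a reader of the H3 lysine 27 mark, lowest at 0.815 ± 0.0919 TPM. All 6 members of the list of H3 lysine 27 demethylases and H2A deubiquitinase genes were expressed. There the deubiquitinase Bap1 was highest at 25.7 ± 2.02 TPM and its cofactor Asxl3 lowest at 1.08 ± 0.0354 TPM.

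Among the de novo methyltransferases, Dnmt3a made up nearly the whole of the RNA. Dnmt3a (ENSMUSG00000020661.15, chromosome 12, 3806007 to 3914443, plus strand) stood at 52.4 and 56.7 TPM in replicates 1 and 2. Dnmt3b (ENSMUSG00000027478.15, chromosome 2, 153649450 to 153687730, plus strand), the enzyme known for its activity in the early embryo, stood at 1.35 and 1.51 TPM. The groups of values lay far apart, and the log2 ratio of Dnmt3a over Dnmt3b was 5.25 ± 0.03 (SD, n = 2), a 38.1-fold difference.

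Dnmt3a thereby held 97.4% ± 0.0589 of the summed TPM of the pair. Over complete coding transcripts the ratio was 24.8-fold, and from CPM, which ignores length, 50.8-fold. The Dnmt3b value rests on few reads, with 125 counts in replicate 1 (exact 95% Poisson interval 104 to 149) and 126 in replicate 2 (105 to 150). The posterior SD of its count, a measure of reads shared with other genes, was 0.256% and 0.167% of its posterior mean, and for the other 8 members it was listed as 0 in both libraries.

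The other genes of the DNA methylation machinery were split. Of 7 genes listed under maintenance methylation and DNMT3 partners, a list that also holds Trdmt1, 5 reached 1 TPM in both libraries. Trdmt1, at 6.40 and 6.21 TPM in replicates 1 and 2, was among the 5. Uhrf1, which brings the maintenance enzyme to replicated DNA, was highest at 37.4 ± 4.76 TPM. Dnmt3c, a rodent paralog of Dnmt3b known from the male germ line, was lowest at 0.02 TPM in replicate 1 and 0.00 in replicate 2. Dnmt3l, the catalytically inactive DNMT3 partner of germ cells, stood at 0.04 TPM in both libraries and was chosen for mention after its value was seen.

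All TET genes were expressed, with Tet3 highest, Tet2 next and Tet1 lowest in both libraries. Tet1 (ENSMUSG00000047146.17, chromosome 10, 62804570 to 62908996, minus strand), known for its high level in embryonic stem cells, stood at 13.1 and 13.2 TPM in replicates 1 and 2. Tet2 (ENSMUSG00000040943.12, chromosome 3, 133463679 to 133545139, minus strand), which lacks the DNA-binding CXXC domain of its relatives, stood at 18.5 and 18.9 TPM. Tet3 (ENSMUSG00000034832.15, chromosome 6, 83362373 to 83459084, minus strand), known for oxidising the paternal genome in the zygote, stood at 25.1 and 24.4 TPM.

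The 3 ranges did not overlap. The log2 ratio of Tet2 over Tet3 was -0.41 ± 0.05 and that of Tet1 over Tet3 was -0.91 ± 0.04 (SD, n = 2). Over complete coding transcripts the gaps were wider, at -0.999 ± 0.08 and -1.61 ± 0.02 on the log2 scale. Tet3 made up 43.7% ± 0.797 of the TET sum in TPM and 54.7% ± 1.01 of the complete coding sum, so that on the stricter scale it exceeded Tet1 and Tet2 together.

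Of 15 genes listed as TET partners or as members of the base excision repair that removes oxidised methylcytosine, 14 were expressed. Idh2, a mitochondrial source of the 2-oxoglutarate that TET enzymes need, was highest at 761 ± 47.7 TPM, and the glycosylase Neil2 lowest at 0.845 ± 0.0636 TPM.

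Most of these genes had a smaller share of their TPM in complete coding transcripts than the median expressed protein-coding gene. The share of a gene's TPM in such transcripts had a median of 52.8% over the 9 members, against 82.2% over 11948 expressed protein-coding genes, and 8 of 9 members lay below the median of all genes. In the second quantification the medians were 54.3% and 78.2%, with 6 of 9 members below. Annotated transcripts with a retained intron took a median of 18.9% of members' TPM, against 2.89% over all expressed protein-coding genes, and 12.5% against 2.76% in the second quantification. These shares depend on how many short transcripts the annotation lists for a gene, and how far this moves the difference was not tested. By counts in the first table, complete coding transcripts held from 51.1% (Eed, replicate 2) to 98.1% (Ezh1, replicate 1) of a member. The share by counts was not computed over all genes.

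Eed and Ezh2 carried the largest retained-intron shares of the members in the first table. In Eed the 6 retained-intron transcripts took 46.0% of TPM in replicate 1 and 52.4% in replicate 2, but 23.2% and 30.3% of the counts. Its only complete coding transcript, Eed-201 of 441 residues, took 36.6% and 23.3% of TPM and 66.1% and 51.1% of the counts. In the second quantification the retained-intron transcripts of Eed took 26.6% and 34.3% of TPM, and Eed-201 took 57.6% and 48.5%, so that its share was lower in replicate 2 in both tables.

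For Ezh2 the transcript with the highest TPM in both libraries was Ezh2-213, a 500-base retained-intron transcript, at 26.8% and 25.4% of the gene's TPM. It held only 98.2 and 105 of the gene's counts in replicates 1 and 2. Counts therefore placed most Ezh2 reads, 80.2% and 73.7%, on complete coding transcripts, while those made up 54.7% and 46.6% of its TPM. Retained-intron transcripts also took 29.4% and 26.0% of Tet2 TPM and 22.0% and 19.8% of Suz12 TPM. Of the counts they held 17.4% and 16.8% in Tet2 and only 3.31% and 2.92% in Suz12. In the second quantification the retained-intron share was 36.5% and 33.0% for Tet2, above that of Eed in replicate 1 and below it in replicate 2. For Ezh2 it was 25.9% and 24.2% there. Complete coding transcripts of Ezh2 held 33.2% and 31.7% of its TPM in the second quantification, below the first table, and 70.3% and 66.9% of its counts.

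In Dnmt3a and Tet3 incomplete coding fragments took the larger part of what complete transcripts left in the first table. Such fragments held 42.3% and 44.6% of Dnmt3a TPM but 8.34% and 8.44% of its counts. They held 29.8% and 22.5% of Tet3 TPM in the first table, but 1.79% and 1.22% of its counts. In the second table they held 18.0% and 0% of Tet3 TPM, and Tet3-204, a 469-base fragment, was at 0 in replicate 2. In Tet1 a noncoding processed transcript of 1505 bases, Tet1-202, was the leading transcript of replicate 1 at 37.3% of TPM, against 30.4% in replicate 2. Tet1-202 held 8.03% and 6.29% of the Tet1 counts.

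**Figure D3:**
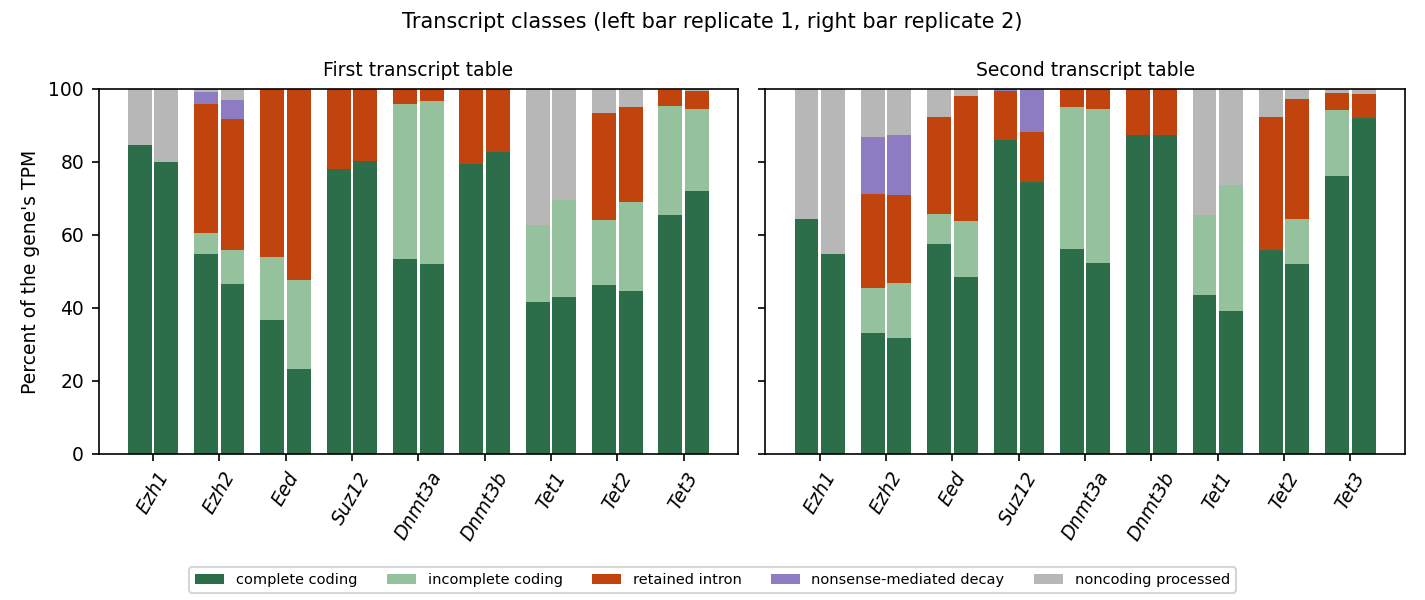
Percent of each gene's TPM in 5 classes of annotated transcript, in replicate 1 (left bar) and replicate 2 (right bar), from the first (left panel) and second (right panel) transcript tables. Eed has the largest retained-intron share in the first table (46.0% and 52.4%), and Dnmt3a the largest share of incomplete coding fragments (42.3% and 44.6%).

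Where a gene codes for proteins of different length from separate annotated starts, the share of each start was summed, as it was for Dnmt3a, Tet3 and Ezh2. The long Dnmt3a protein of 908 residues comes from transcripts starting at 3807030 to 3807160, and the short protein of 689 residues from starts 84698 bases downstream, where the internal CpG-poorer window printed above lies. The short form lacks the N-terminal region of the long form and is known as the main form of mouse embryonic stem cells.

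Transcripts of the long form (Dnmt3a-201 and Dnmt3a-218) took 66.2% and 68.2% of complete coding Dnmt3a TPM in replicates 1 and 2, a mean of 67.2% ± 1.42. Those of the short form (Dnmt3a-205 and Dnmt3a-203) took 33.8% and 31.8%, or 9.48 and 9.40 TPM. The second quantification gave the long form 74.0% and 74.1% and the short form 26.0% and 25.9%. The long form was thus the larger share in each library of each table. The single transcripts were less certain than the sums, with a posterior SD of 37.6% and 51.3% of the posterior mean count for Dnmt3a-218.

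Tet3 transcripts began at positions 14717 bases apart. The upstream start gives Tet3-203, which codes for 1803 residues and includes the CXXC domain, and the downstream start gives Tet3-202, which codes for 1668 residues without it. Tet3-203 took 38.4% and 36.4% of complete coding Tet3 TPM in replicates 1 and 2, and Tet3-202 took 61.6% and 63.6%. The second quantification gave Tet3-203 39.7% and 38.6%, within 3 percentage points of the first table. Posterior SDs were at most 3.88% of the posterior mean count for either transcript, the best resolved pair among the members. The entries also differ at the 3′ end, where Tet3-202 (10904 bases) runs to 83362373 and Tet3-203 (5944 bases) only to 83368042. Of the pair, only Tet3-202 can take reads beyond the end of Tet3-203, whichever start the RNA used. The shares therefore divide annotated entries, not measured starts of transcription, and a small posterior SD does not change this. The RefSeq window of Tet3 lies at the downstream start. The annotation gives Tet3-203 its highest support level, 1, and Tet3-202 its lowest, 5.

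Ezh2 has an upstream annotated start, for 3 complete coding transcripts, and a downstream annotated start for Ezh2-202 alone. The Ezh2-202 entry, 2115 bases for 704 residues, holds only a coding sequence with its stop codon. Its first base is therefore that of the start codon, and the shares below divide annotated entries, not measured starts of transcription. The upstream start took 56.2% and 54.4% of complete coding Ezh2 TPM in replicates 1 and 2, and 65.7% and 62.6% in the second quantification, the larger share in each library of each table. By single transcript, Ezh2-201 (746 residues) and Ezh2-202 (704 residues, from a start 17370 bases downstream that the annotation gives its lowest support level, 5) took 43.8% each of complete coding Ezh2 TPM in replicate 1, and 47.8% and 45.6% in replicate 2. In the second quantification Ezh2-201 took 52.8% and 58.9% in replicates 1 and 2, and Ezh2-202 34.3% and 37.4%. In Suz12, which has 1 start, Suz12-201 (741 residues) led with 83.9% and 93.6% of complete coding TPM.

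Ezh1 showed an allocation that switched between the libraries. Ezh1-203 (750 residues) took 9.56% of complete coding Ezh1 TPM in replicate 1 and 77.1% in replicate 2, while Ezh1-202 (747 residues) took 69.2% and 0%. Their posterior SDs were between 47.5% and 64.8% of the posterior mean count, and the second quantification gave Ezh1-202 80.8% and 75.9% with Ezh1-203 at 0.00435% and 1.33%. The switch is therefore not carried over to the second table, whereas Ezh1-201 (579 residues) held 21.2% and 22.9% in the first table and 19.2% and 22.8% in the second.

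The order of the Tet2 forms depended on the table, while in Dnmt3b the same form led in both tables on few reads. Tet2-201 (1912 residues) took 71.1% and 62.7% of complete coding Tet2 TPM in the first table and 34.2% and 34.6% in the second, with Tet2-204 (1920 residues) holding the rest; their support levels are 5 and 1. Dnmt3b transcripts of 776 residues took 63.9% and 59.2% of its complete coding TPM in the first table and 51.9% and 57.3% in the second, and those of 860 residues 36.1% and 40.8%, then 45.5% and 42.7%. Their single transcripts had posterior SDs of 57.3% to 91.2% of the posterior mean count.

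For Tet1, Tet1-206 (2039 residues) took 60.1% and 87.9% of complete coding TPM in replicates 1 and 2, and Tet1-201 (2007 residues, from a start 19104 bases downstream) took 39.9% and 12.1%. The second quantification gave Tet1-201 28.8% and 10.8%, so that its share was higher in replicate 1 in both tables. The posterior SD of Tet1-201 was 18.8% and 43.8% of its posterior mean count, and both transcripts have support level 5. The RefSeq window of Tet1 lies at neither of these starts. Across the members, the leading transcript by TPM was the same in both libraries for 7 of 9 genes, and the same in both tables for 4 of 9.

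**Figure D4:**
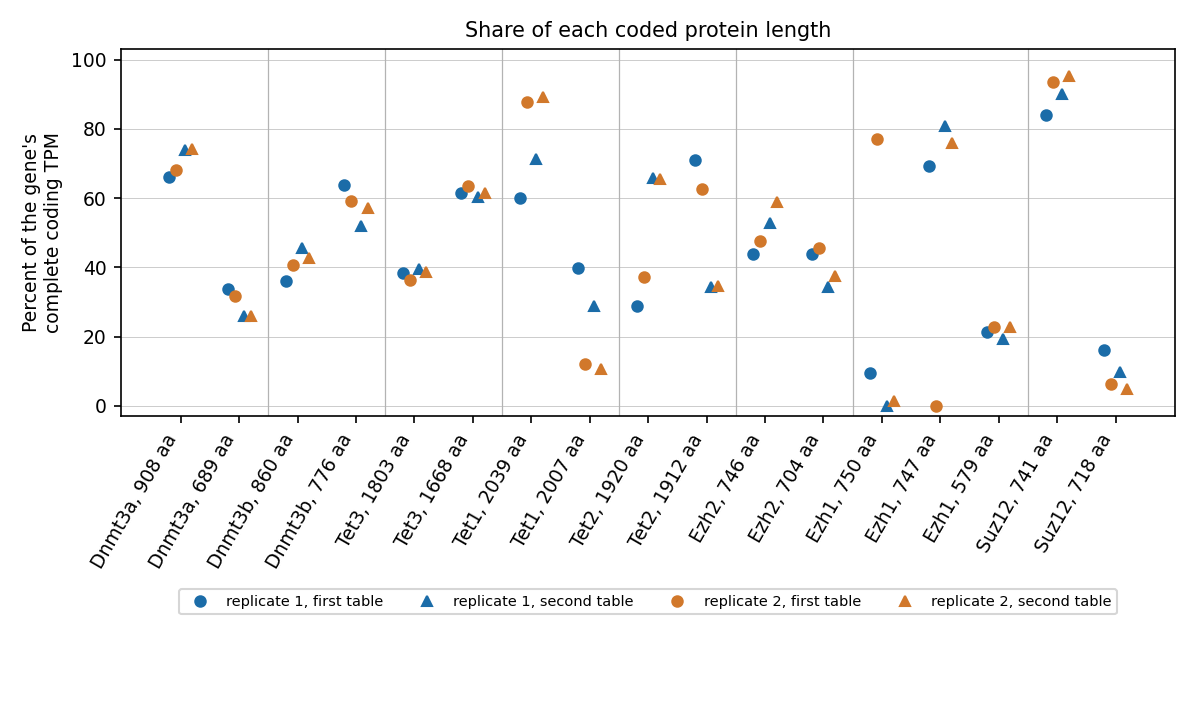
Percent of a gene's complete coding TPM, for forms with at least 10% in either table, by length of the coded protein (residues, aa), in replicate 1 (blue) and replicate 2 (orange), from the first (circles) and second (triangles) transcript tables. The Dnmt3a and Tet3 points lie close together within each form, while Ezh1 at 747 residues spans 0% to 80.8% and the forms of Tet2 change order between tables.

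Between the libraries, none of the 9 genes met the rule for a difference. The rule took counts scaled by TMM (a scaling that assumes that most genes do not differ) and asked for a ratio of at least 2-fold whose exact 95% counting interval excluded equality. Of 13598 genes tested, 0.860% met it, 0.537% higher in replicate 1 and 0.324% higher in replicate 2, and a count of 0 among 9 genes is near that background. The rule sets a single library against another and has no replicate behind it, and at 1.5-fold, which 2.29% of tested genes met, 0 of 9 members met it as well.

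The members' ratios were of a size common among tested genes. The log2 ratios of replicate 1 over replicate 2 ran from -0.16 to 0.11, and the central 95% of all tested genes ran from -0.44 to 0.46. The size of the ratio was smaller in 73.3% of tested genes for Ezh2, and in 11.4% for Tet1, the extremes of the members. For 2 of the 9 the counting interval excluded equality, a count near the background, since it did so for 23.7% of tested genes. Ezh2 had 1493 and 1546 counts and a log2 ratio of -0.16 (95% interval -0.26 to -0.06), lower in replicate 1. Tet2 had 2687 and 2309 counts and a ratio of 0.11 (0.03 to 0.19), higher in replicate 1. Scaling by the spike-ins, which shifts all genes alike, gave Tet2 a ratio of -0.02 where the median of all genes was -0.13.

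The other counts were also close. Ezh1 had 643 counts in replicate 1 and 628 in replicate 2, Suz12 2519 and 2411, Dnmt3a 6563 and 6188, Tet1 2404 and 2203, and Tet3 4345 and 4091. Their log2 ratios after scaling lay between -0.08 and 0.02, and those of Eed and Dnmt3b, at -0.10 and -0.12, had intervals that included 0. All 4 PRC2 genes had a ratio below 0, as did 6653 of the 13598 tested genes. Their median was -0.09, against a median of 0.00 over all tested genes, and of the 4 only Ezh2 had an interval that excluded 0. Relative to the median of all tested genes, 7 members lay lower and 2 higher. Spike-in and total count scaling cannot change this count, because each shifts all genes alike. The second quantification of the same reads also gave 7 lower and 2 higher.

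Markers of proliferation and of cell types were read beside these ratios. All 13 proliferation genes had a ratio below 0, with a median of -0.12 and a range of -0.23 to -0.04, and no proliferation, fibroblast, macrophage, endothelial or cardiomyocyte marker met the 2-fold rule. The 4 fibroblast markers had a median of -0.14 and the 4 macrophage markers of -0.26, with summed levels of 555 and 658 TPM and of 16.5 and 20.2 TPM in replicates 1 and 2. The 6 tested erythroid markers met the rule with a median of 6.32, and the 4 tested skeletal muscle markers with a median of 4.00. The 6 cardiomyocyte markers had a median of 0.07 and the 4 endothelial markers of 0.05, with 4 and 3 of them above 0. The part of these differences in the ratios of Ezh2 and Tet2 was not tested.

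**Figure D5:**
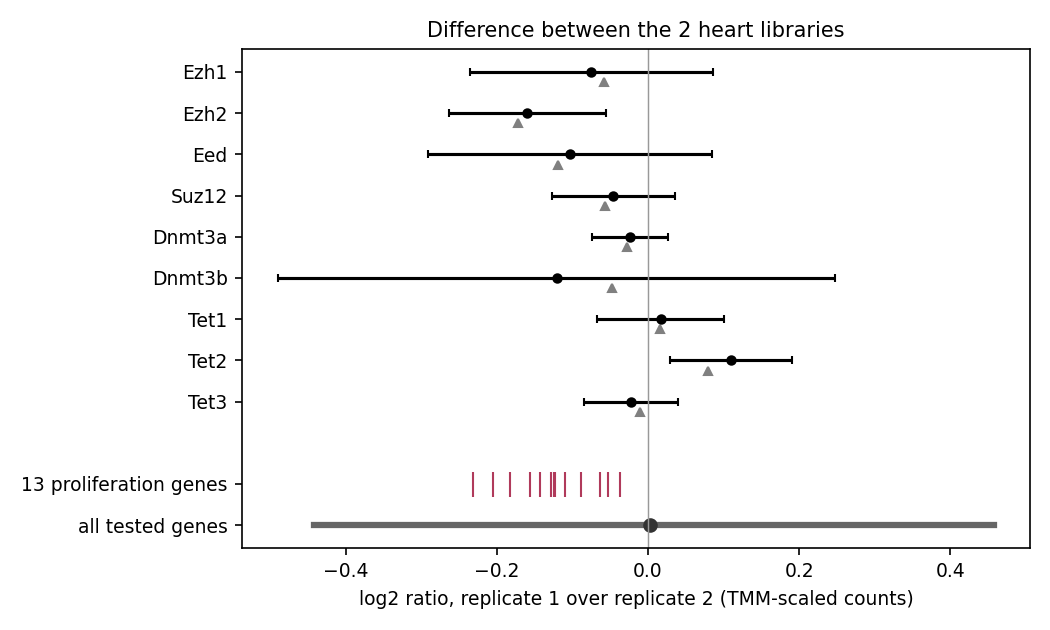
Log2 ratio of scaled counts, replicate 1 over replicate 2, for the 9 genes (black, with exact 95% counting intervals; grey triangles are the second quantification), for 13 proliferation genes (ticks) and for all tested genes (bar, central 95%; dot, median). The intervals of Ezh2 (-0.26 to -0.06) and Tet2 (0.03 to 0.19) leave out 0, and every proliferation tick lies below 0.

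Overlapping genes took few reads. Of 13 annotated genes that overlap a member, 12 had at most 18 counts in either library, including the antisense genes Dnmt3aos and Dnmt3bos at 0 in the first table. The exception was 5430434F05Rik, on the same strand within Tet3, with 64 and 68 counts beside the 4345 and 4091 of Tet3.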

How the data were processed

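Stranded, ribosome-reduced total RNA libraries were made per the labels, and the deposited notes name mm10 and annotation M21 for every table. The authors deposited estimated (expected) counts with posterior SDs, TPM and the percent of each gene's abundance per transcript in a first set of gene and transcript tables, and estimated counts and TPM in a second transcript table. Which programs made the tables is not given in the sources used here. Deposited TPM and posterior mean TPM were used as given. Transcripts of the second table were summed per gene, and CPM was computed from the counts of the first. Complete coding transcripts are protein-coding entries of GENCODE M21 without an incomplete end. The percent column was not used, and shares were recomputed from TPM.

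Levels are mean ± SD of the 2 libraries and no p-value was computed. Between libraries, counts were rounded, scaled by TMM with edgeR 4.0.16 under R 4.3.3 and offset by a prior count of 0.5; genes averaging 1 TPM or more with 20 or more summed counts were tested, using exact 95% Clopper-Pearson intervals. The rule was tested on simulated counts with Poisson error alone. That simulation leaves out other spread between libraries, so it does not show how the rule performs on these data. Python 3.11.15 with pandas 2.3.3 and scipy 1.17.1 was used. All intervals reflect counting error alone, because they are computed from the counts with no term for spread between libraries. The reads carry no molecular identifiers, and each counted read is taken as independent.

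The members and gene lists were chosen with earlier results of these data known. All 9 members are named, with every transcript that had a mean share of at least 10% in either table considered, and of other lists the highest and lowest genes. Alternatives were the second quantification, posterior mean TPM, CPM, a pseudocount of 1, other scalings and filters, and each library alone. Parental alleles were not analysed here.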

Additional observations from a re-analysis of the deposited data

How the results depend on the processing

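All pair ratios kept their sign under every alternative run, but 18 of 25 values recomputed from both libraries moved by more than 1 SD of the libraries. For Ezh1 over Ezh2 the log2 ratio was -1.26 from CPM, -2.21 with a pseudocount of 1 and -1.65 over complete coding transcripts, and -2.42 to -2.29 with either library alone. For Eed over Suz12 it was -0.84 in the second quantification, -2.39 from CPM and -2.01 over complete coding transcripts, and -0.76 to -0.39 with either library alone. For Dnmt3a over Dnmt3b it was 5.06 from posterior mean TPM, 5.67 from CPM, 4.51 with a pseudocount of 1 and 4.63 over complete coding transcripts, and 5.23 to 5.28 with either library alone. For Tet2 over Tet3 it was -0.34, -0.76 and -0.999 (second quantification, CPM, complete coding), and -0.44 to -0.37 with either library alone. For Tet1 over Tet3 it was -0.64, -0.82, -0.87, -0.86 and -1.61 (second quantification, posterior mean TPM, CPM, pseudocount, complete coding), and -0.94 to -0.89 with either library alone. CPM drops the correction for length by construction. The complete coding alternatives and the orders on other scales were chosen after seeing the data.

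All 9 members stayed at or above 1 in each alternative measure, and 8 of 9 reached 5 TPM. Genes higher in replicate 1 numbered 208 with no filter on TPM, 25 when the mean TPM had to reach 5 and 177 at 1.5-fold, and genes higher in replicate 2 numbered 149, 11 and 134 under these and 68 with spike-in scaling. No member was called under any of the 8 alternatives. The log2 ratio between libraries changed sign for Tet1, to -0.12 with spike-in and -0.0277 with total count scaling, and for Tet2, to -0.0242 with spike-in scaling. These scalings shift all genes alike, with medians of -0.13 and -0.0415 over all tested genes. Tet1 and Tet2 therefore stayed above the median by construction. No paired analysis was possible because the study has 1 group. Depth limits Dnmt3b most, at 125 and 126 counts.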

Other observations

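The list of methyl-CpG binding proteins and their relatives was expressed throughout; some members, Mbd3 among them, are known not to prefer methylated CpG in mammals. All 9 genes reached 1 TPM in both libraries, from Mbd3, a subunit of the NuRD repressor complex, at 62.6 ± 2.76 TPM (SD, n = 2) to the zinc finger gene Zbtb33 at 6.18 ± 0.141 TPM. Their median of 18.6 TPM stood beside 18.7 TPM for the TET genes and 22.6 TPM for the PRC2 core. All 13 proliferation genes were expressed as well, with a median of 49.7 TPM. Top2a, the topoisomerase that separates replicated chromosomes, was highest at 91.3 ± 9.64 TPM and the helicase subunit Mcm4 lowest at 20.7 ± 1.76 TPM.

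RNA of other tissues separated the libraries more than any of the 9 genes did. The erythroid genes Alas2, Hbb-bs, Hbb-bt, Hba-a1, Hba-a2 and Slc4a1, which encode haem synthesis, globins and the red cell anion exchanger, met the 2-fold rule, with log2 ratios of replicate 1 over replicate 2 from 3.47 to 6.46. The skeletal muscle genes Myh8, Mylpf, Tnnc2 and Atp2a1 met it with ratios from 2.76 to 5.65, the highest being Tnnc2 with 81 counts in replicate 1 and 1 in replicate 2 (95% interval 3.71 to 11.6). The reads of the near-identical globin copies can be shared, so their single values are uncertain.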
